A study of Mus musculus with 12 samples.

Results

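Enzymes of cholesterol synthesis were followed in mouse liver after paracetamol (acetaminophen, APAP) overdose: Hmgcs1, Mvd, Idi1, Fdps, Fdft1, Sqle and Lss. These 7 genes, of 24187 in the count table, were taken from a list of names that sets no threshold on any measured value, and all 7 passed the filter on low counts. The list was chosen with earlier results of these data known. Bulk RNA sequencing, which reads RNA from tissue without separating its cell types, was available for 12 livers: 3 control mice with no injury and no treatment, 5 mice given 350 mg/kg APAP and then the PBS vehicle, and 4 mice given the same dose of APAP and then hAAM cells. hAAMs are human alternatively activated macrophages, cultured from CD14+ blood monocytes with CSF1 and then IL-4 and IL-13, so the treated mice carried cells of another species. The mice were young adults, named as C57BL/6J in the series and as C57BL6/JOlaHsd in the description of the injury model. In that model paracetamol or saline was injected after a fast, while the labels call the control mice untreated, so whether these 3 were fasted remains unclear. The dose given here is that of the sample labels, and it is in conflict with the paper, which shows these livers with its severe model at a higher dose. The labels give neither the time of collection nor the sex.

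Cholesterol is built from acetyl-CoA through mevalonate. HMG-CoA synthase (Hmgcs1) makes the precursor of mevalonate, mevalonate diphosphate decarboxylase (Mvd) turns mevalonate diphosphate into isopentenyl diphosphate, and the isomerase Idi1 converts that unit to dimethylallyl diphosphate. Farnesyl diphosphate synthase (Fdps) joins these units, squalene synthase (Fdft1) joins farnesyl units to squalene, squalene epoxidase (Sqle) adds oxygen, and lanosterol synthase (Lss) closes the rings to give the first sterol. In hepatocytes the transcription factor SREBP2, encoded by Srebf2, is released from the endoplasmic reticulum when sterols are scarce and raises transcription of the pathway together with the factors NF-Y and Sp1.

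The counts of hAAM replicate 4 and vehicle replicate 3 differed by only 1.20 times the spread that counting noise alone gives, whereas the other 35 pairs of injured livers differed by 2.86 to 7.89 times. Both livers were among the highest for most of the 7 genes. They carry labels of different groups and were kept as labelled, and the main values for the 7 genes are also given without them. The tissue label was borne out by Alb, the albumin gene, at a mean of 52022 CPM (counts scaled to a common library size with TMM factors) in control livers. Total counts per liver were 47391650 to 74056505, and the lowest count of any of the 7 genes in any liver was 426.

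The 7 genes lie on 6 chromosomes of the GRCm38 assembly and are all protein-coding. Hmgcs1 (ENSMUSG00000093930) spans chr13:119690379-119708260 on the plus strand, and Idi1 (ENSMUSG00000058258) spans chr13:8885501-8892451 on the plus strand. Mvd (ENSMUSG00000006517) is at chr8:122433601-122443422 on the minus strand. Fdps (ENSMUSG00000059743) is at chr3:89093588-89101959 on the minus strand, and Fdft1 (ENSMUSG00000021273) is at chr14:63145150-63179578 on the minus strand. Sqle (ENSMUSG00000022351) is at chr15:59315077-59331192 and Lss (ENSMUSG00000033105) at chr10:76531588-76557138, both on the plus strand.

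Near-identical copies make some of these counts uncertain, because a read from a shared stretch can be placed on either gene or discarded. Fdps had stretches of at least 100 bases and 95% identity in 6 other genes, among them the pseudogene Gm3571 (1062 aligned bases, 98.87% identical). Gm3571 itself was credited with 332 to 1241 counts per liver, against 426 to 1737 for Fdps. Idi1 had such copies in 3 genes, with 684 bases identical in Gm13502, and Fdft1 in 2, the pseudogene Gm6781 and Ctsb, which lies on the opposite strand and shares 774 exon bases with it. For Hmgcs1 the antisense gene Gm48342 shared 557 exon bases, for Idi1 the antisense gene Gm48574 shared 323, and for Lss the antisense gene 4930483K19Rik shared 381. Gm43738, on the same strand as Fdps, shared 1124 of its exon bases. Sqle and Mvd had no such copy, and neither shared exon bases with a neighbour. The library kit preserves strand, but whether strand was used in counting is not given in the sources used here.

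Promoter windows for 4 of the 7 genes were held in the RefSeq table for GRCm38.p6, and they are shown because SREBP2 and NF-Y are known to act there and because the genes varied together between livers. Each is the 250 bases before the RefSeq start site, on the strand of the gene, and capitals mark matches to the sterol regulatory element TCACNCCAC and to the NF-Y box CCAAT, on either strand (ATTGG is its reverse complement). The windows are Hmgcs1 at chr13:119690101-119690350 on the plus strand, Mvd at chr8:122443423-122443672 on the minus strand, Idi1 at chr13:8885356-8885605 on the plus strand and Lss at chr10:76531355-76531604 on the plus strand.
Hmgcs1: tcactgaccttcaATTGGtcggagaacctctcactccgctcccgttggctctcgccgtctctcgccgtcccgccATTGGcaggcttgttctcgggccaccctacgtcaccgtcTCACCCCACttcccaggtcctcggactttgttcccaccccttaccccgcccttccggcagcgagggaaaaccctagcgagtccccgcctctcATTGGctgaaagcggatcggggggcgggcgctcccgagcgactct
Mvd: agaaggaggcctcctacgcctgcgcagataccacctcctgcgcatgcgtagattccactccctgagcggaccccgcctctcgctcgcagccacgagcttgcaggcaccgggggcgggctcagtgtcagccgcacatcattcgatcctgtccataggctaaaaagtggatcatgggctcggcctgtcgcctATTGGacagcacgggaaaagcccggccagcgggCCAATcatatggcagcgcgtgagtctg
Idi1: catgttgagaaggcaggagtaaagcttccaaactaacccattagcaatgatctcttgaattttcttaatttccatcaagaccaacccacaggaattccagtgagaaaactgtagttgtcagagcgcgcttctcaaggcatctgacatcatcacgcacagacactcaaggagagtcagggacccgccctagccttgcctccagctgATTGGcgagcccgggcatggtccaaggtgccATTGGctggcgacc
Lss: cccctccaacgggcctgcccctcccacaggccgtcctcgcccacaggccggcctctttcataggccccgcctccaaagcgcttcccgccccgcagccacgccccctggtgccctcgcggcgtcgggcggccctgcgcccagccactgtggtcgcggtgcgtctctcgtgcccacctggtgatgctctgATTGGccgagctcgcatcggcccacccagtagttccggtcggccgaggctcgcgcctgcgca

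The sterol regulatory element was matched in Hmgcs1, as TCACCCCAC starting at position -137 from the start site. It had no match in the windows of Mvd, Idi1 or Lss, which says only that these letters are not there. Of all 32851 RefSeq windows of this length, 1.05% held TCACNCCAC and 0.496% held TCACCCCAC. The NF-Y box was found in 4 of 4 windows, against 33.8% of all windows and 12 of 16 windows of the other sterol synthesis genes, with matches at -45 in both Hmgcs1 and Idi1, at -60 and -27 in Mvd, and at -62 in Lss. GGGCGG, the GC box bound by Sp1, was found in 4 of 4 windows on one or the other strand, against 32.7% of all windows and again 12 of 16 of the other sterol synthesis genes. The sterol regulatory element was in 0 of those 16. A match is a description of sequence and not a measured binding site. The promoters of Fdps, Fdft1 and Sqle were not analysed here.

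Levels between genes can be compared only per length, in RPKM, which is CPM divided by kilobases of exon, here the union of all annotated exons. In the control livers the order of mean RPKM was Hmgcs1 (47.9 ± 8.07, SD, n = 3), Idi1 (40.9 ± 7.97), Fdft1 (21.8 ± 4.29), Sqle (18.7), Mvd (15.4 ± 6.12), Lss (6.38 ± 2.19) and Fdps (5.93 ± 1.78). Each of the first 4 stood above the next gene in 12 of 12 mice. The lower part of the order was less firm: Mvd stood above Lss in 9 of 12 mice, and Lss above Fdps in 10 of 12 mice and in 2 of the 3 controls. The copies named above bear on the place of Fdps. The whole order rests on the exon length used. That length was 10787 bases for Lss, 5546 for Sqle, 4227 for Fdft1 and 4208 for Fdps. Their longest coding transcripts had 4667, 2758, 3698 and 1382 bases. The order with transcript lengths was not computed and may differ.

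The first comparison asked how the pathway differed between injured livers given vehicle and control livers. Mvd was lower in the injured livers, at a fold of 0.400 of the control level, and it was the member of the 7 that passed the test. The other 6 genes had fitted changes between -0.83 and -0.15 on the log2 scale, and none passed. All 7 fitted changes were below 0 with TMM scaling, although with library size alone 3 of them (Hmgcs1, Fdft1 and Lss) were above 0. The median over the 7 genes was -0.36, against 0.012 over all 22581 genes tested. With library size alone it was -0.029, against 0.36 over all genes. With TMM scaling the median was -0.20 without vehicle replicate 4 or without control replicate 2, and -0.52 without hAAM replicate 4 and vehicle replicate 3. edgeR's quasi-likelihood test at a Benjamini-Hochberg false discovery rate (FDR) under 0.05 called 14.8% of all genes lower and 15.0% higher in this comparison, so 1 of 7 is near the background. In a bulk sample, fewer cells of a type and less RNA per cell cannot be told apart.

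Mvd was at 19.5, 41.4 and 25.0 CPM in control replicates 1 to 3. It was 9.41, 11.3, 14.6, 7.60 and 14.3 CPM in vehicle replicates 1 to 5. The highest vehicle liver lay below the lowest control liver, a separation that 17.3% of all genes showed in this direction. The log2 fold change was -1.32 (SE 0.269, 95% interval -1.91 to -0.74, edgeR FDR = 0.00409). Without hAAM replicate 4 and vehicle replicate 3 it was -1.41 (edgeR FDR = 0.00372). The call held in 22 of 22 other settings, where the FDR of edgeR or DESeq2 reached at most 0.0235.

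Fdps had the next largest fitted change. Its CPM was 16.6, 27.3 and 31.0 in the control livers, and 10.8, 10.6, 26.5, 6.30 and 16.1 in vehicle replicates 1 to 5. Vehicle replicate 3 lay inside the control range, while the other 4 vehicle livers lay below every control liver. The log2 fold change was -0.83 (SE 0.465, 95% interval -1.84 to 0.18) and did not pass (edgeR FDR = 0.198). With vehicle replicate 3 left out it was -1.19 (edgeR FDR = 0.0561), and with the counts of its copies added it was -0.90 (edgeR FDR = 0.108).

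Hmgcs1, the first of these enzymes in the pathway, was at 177, 244 and 240 CPM in control livers and at 151, 154, 303, 98.8 and 286 CPM in vehicle livers. Vehicle replicates 3 and 5 were above every control liver and the other 3 below all of them. Its log2 fold change was -0.15 (SE 0.348, 95% interval -0.91 to 0.61, edgeR FDR = 0.774), and it was 0.022 without vehicle replicate 4. The spread among the vehicle livers, 3.07 times from lowest to highest, was larger than the difference between the groups.

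Idi1 followed the same order of mice. It was at 113, 167 and 150 CPM in control livers and at 85.0, 87.2, 187, 61.0 and 138 CPM in vehicle livers, so vehicle replicate 3 exceeded every control liver. The log2 fold change was -0.36 (SE 0.343, edgeR FDR = 0.457).

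The enzymes of the squalene steps overlapped between the groups as well. Fdft1 was at 72.0, 107 and 96.6 CPM in control livers and at 59.7, 66.7, 104, 47.8 and 90.2 CPM in vehicle livers (log2 fold change -0.32, SE 0.253, edgeR FDR = 0.359). Sqle was at 64.6, 135 and 112 CPM in control livers and at 67.3, 65.2, 111, 51.8 and 103 CPM in vehicle livers (log2 fold change -0.39, SE 0.285, edgeR FDR = 0.330). For both genes vehicle replicates 3 and 5 lay within the control range, as did replicates 1 and 2 for Sqle. Lss, which forms the sterol rings, was at 44.3, 91.5 and 70.7 CPM in control livers and at 49.96, 54.9, 92.5, 34.2 and 68.2 CPM in vehicle livers (log2 fold change -0.20, SE 0.322, edgeR FDR = 0.673). Without control replicate 2 its log2 fold change was 0.057, on the other side of 0. With hAAM replicate 4 and vehicle replicate 3 left out, none of these 6 genes passed either, and the log2 fold changes were -0.35 for Hmgcs1, -0.62 for Idi1, -1.18 for Fdps, -0.47 for Fdft1, -0.52 for Sqle and -0.40 for Lss.

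**Figure D1:**
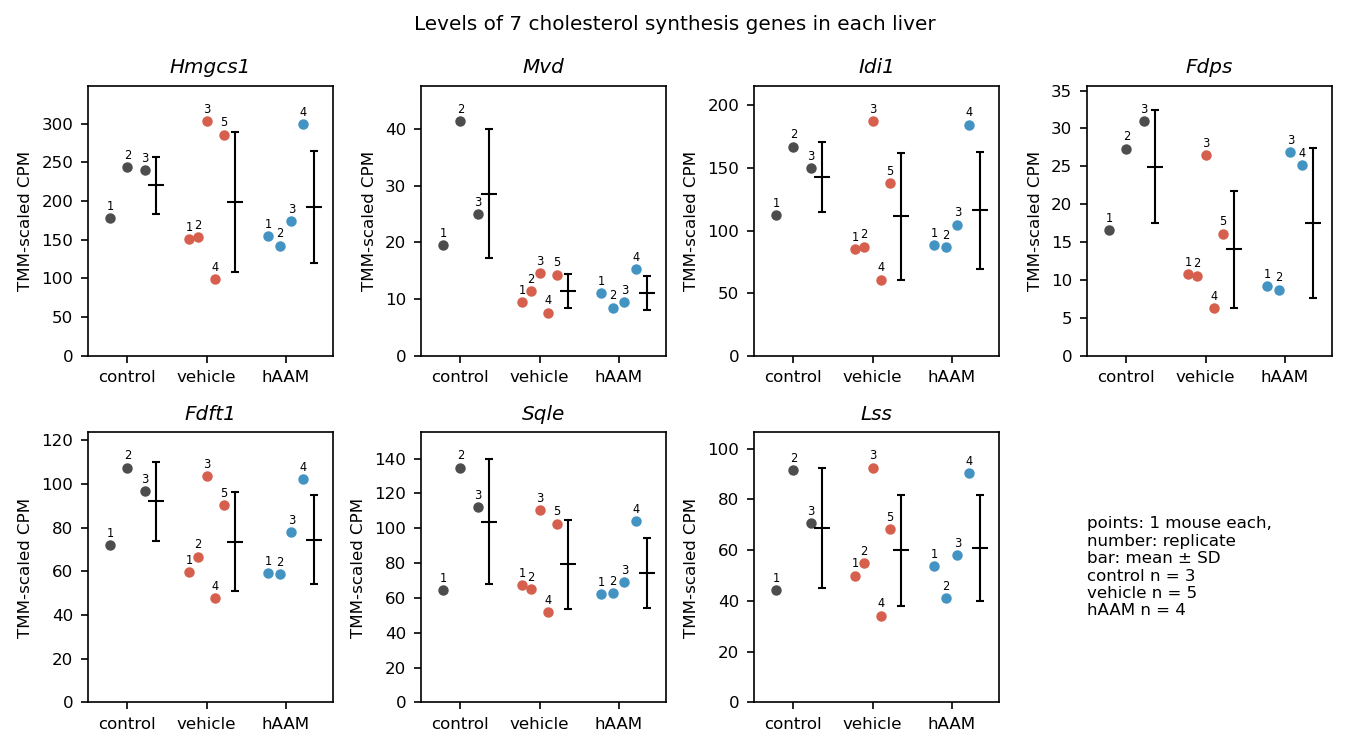
Level of each of the 7 genes in each liver, in TMM-scaled CPM (vertical axes start at 0), by group; each point is 1 mouse with its replicate number, and the bar is the mean ± SD. For Mvd, the injured livers sit between 7.60 and 15.2, all below the control livers at 19.5 to 41.4, and for the other 6 genes the groups overlap.

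The second comparison set the livers given APAP and hAAM cells against the same 3 control livers, so it is not independent of the first. Mvd was again the member that passed, at a fold of 0.387 of the control level. The other 6 fitted changes lay between -0.51 and -0.18 on the log2 scale, and none passed. With library size alone as the scaling, 2 of the 7 (Hmgcs1 and Lss) were above 0, where TMM gave 7 of 7 below. The median was -0.31 over the 7 genes and 0.016 over all genes tested. With library size alone it was -0.018, against 0.32 over all genes. With TMM scaling and without hAAM replicate 4 the median was -0.62, without control replicate 2 it was -0.18, and without hAAM replicate 4 and vehicle replicate 3 it was -0.61. edgeR called 9.96% of all genes lower and 10.7% higher here.

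Mvd was at 11.1, 8.52, 9.43 and 15.2 CPM in hAAM replicates 1 to 4. All 4 lay below the lowest control liver, as did those of 14.2% of all genes. The log2 fold change was -1.37 (SE 0.287, 95% interval -1.99 to -0.75, edgeR FDR = 0.00764), and it was -1.56 without hAAM replicate 4 and vehicle replicate 3 (edgeR FDR = 0.00673). It was called in 22 of 22 other settings, with an FDR of at most 0.0369.

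Fdps split the hAAM livers, with 9.18 and 8.76 CPM in replicates 1 and 2 and 26.9 and 25.2 CPM in replicates 3 and 4. The first pair lay below every control liver and the second pair within the control range. Its log2 fold change was -0.51 (SE 0.491, edgeR FDR = 0.491). Sqle was at 62.0, 62.7, 69.1 and 104 CPM in the hAAM livers, and its log2 fold change was -0.48 (SE 0.299, edgeR FDR = 0.278).

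Hmgcs1 was at 154, 142, 174 and 299 CPM in the hAAM livers, and Idi1 at 88.4, 86.7, 105 and 185 CPM. In both genes hAAM replicate 4 stood above every control liver and the other 3 below every control liver. The log2 fold changes were -0.19 for Hmgcs1 (SE 0.364, edgeR FDR = 0.742) and -0.30 for Idi1 (SE 0.360, edgeR FDR = 0.587). Without hAAM replicate 4 they were -0.49 and -0.62. Fdft1 was at 59.1, 58.6, 78.0 and 102 CPM (log2 fold change -0.31, SE 0.266, edgeR FDR = 0.445). Lss was at 53.7, 41.1, 58.1 and 90.4 CPM (log2 fold change -0.18, SE 0.338, edgeR FDR = 0.743), and without control replicate 2 its log2 fold change was 0.080. With hAAM replicate 4 and vehicle replicate 3 left out, the log2 fold changes were -0.48 for Hmgcs1, -0.61 for Idi1, -0.73 for Fdps, -0.49 for Fdft1, -0.68 for Sqle and -0.43 for Lss, and none of these passed (edgeR FDR of 0.112 to 0.310).

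The third comparison, hAAM against vehicle among injured livers, addressed the effect of the cells. None of the 7 genes passed the test, and 0% of the 22581 genes tested did. By edgeR 0 genes were called, and DESeq2 called 1. An unadjusted edgeR p under 0.05 was reached by 1133 genes, about the share that this threshold passes by chance alone. The fitted log2 differences were -0.043 for Hmgcs1, -0.050 for Mvd, 0.057 for Idi1, 0.32 for Fdps, 0.018 for Fdft1, -0.093 for Sqle and 0.021 for Lss. Their 95% intervals bound what these livers can show: the narrowest was that of Fdft1, -0.49 to 0.53, and the widest that of Fdps, -0.63 to 1.26. For Mvd it ran from -0.60 to 0.50, so a difference of the size seen against control lies outside it. The 0.32 of Fdps rested on single livers, being 0.034 without hAAM replicate 3 and 0.68 without vehicle replicate 3. Without hAAM replicate 4 and vehicle replicate 3 it was 0.45, and the other 6 differences lay between -0.15 and 0.0049.

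**Figure D2:**
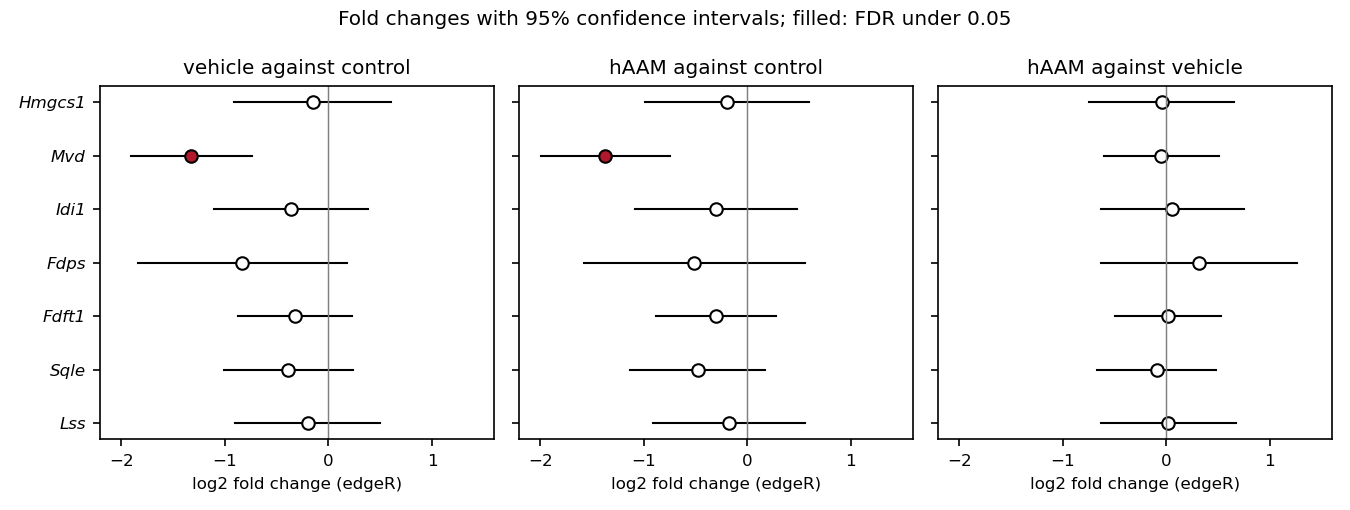
Log2 fold changes (horizontal axes) of the 7 genes in the 3 comparisons, from edgeR with TMM scaling, with 95% confidence intervals as lines; filled points passed an FDR under 0.05. Mvd passed in both comparisons with control (-1.32 and -1.37), and the intervals of the other genes and of all hAAM against vehicle differences cross 0; with library size alone, Hmgcs1, Fdft1 and Lss (vehicle) and Hmgcs1 and Lss (hAAM) lie above 0.

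Within each group the 7 genes ranked the mice in nearly the same way. Vehicle replicate 4 had the lowest level of its group for 7 of 7 genes and vehicle replicate 3 the highest for 7 of 7. Among hAAM livers, replicate 4 was highest for 6 and replicate 2 lowest for 6. Among control livers, replicate 1 was lowest for 7 and replicate 2 highest for 6. Averaged over the 7 genes, the log2 difference from the control mean ran from -1.28 in vehicle replicate 4 to 0.14 in vehicle replicate 3, and from -0.92 in hAAM replicate 2 to 0.11 in hAAM replicate 4. The control livers themselves ran from -0.45 to 0.33.

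**Figure D3:**
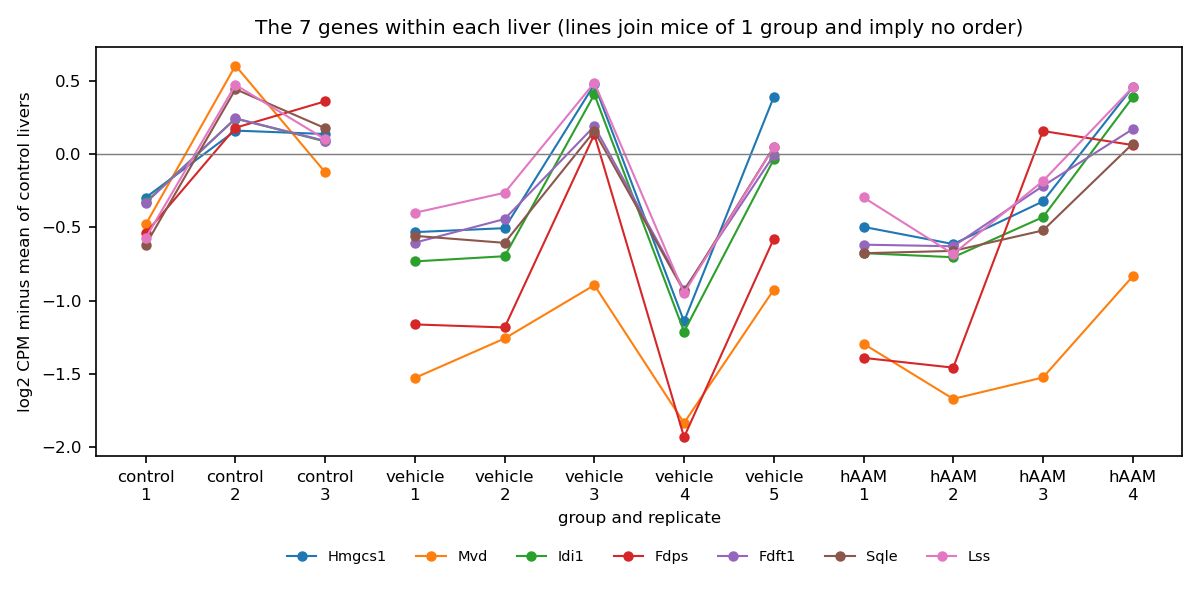
Difference of each gene's log2 CPM from its mean in the 3 control livers (vertical axis), for each of the 12 livers (horizontal axis, group and replicate); each colour is 1 gene, and lines join the mice of a group without implying an order. Most genes vary together from mouse to mouse, with vehicle replicate 4 lowest in its group for 7 of 7 genes, while Mvd stays below its control mean in all 9 injured livers.

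As a description over the 12 livers, which share their depth and scaling across genes, Pearson's r between pairs of the 7 genes ran from 0.63 to 0.98 with a median of 0.90 (21 pairs). After the group means were subtracted, the median was 0.92 and the range 0.65 to 0.98. Without hAAM replicate 4 and vehicle replicate 3 (10 livers), the median within groups was 0.87 and the lowest 0.49. Fdft1 followed the mean of the other 6 most closely (r = 0.99) and Mvd least (r = 0.74). After group means were subtracted, Fdps (0.86) and Mvd (0.87) had the lowest values.

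The spread between mice of a group was wide for these genes. The within-group SD of log2 CPM was 0.40 for Fdft1, 0.43 for Mvd, 0.45 for Sqle, 0.51 for Lss, 0.54 for Idi1, 0.55 for Hmgcs1 and 0.76 for Fdps, against a median of 0.15 over 11172 genes of moderate or high level (mean log2 CPM of at least 2). Each of the 7 values was above those of 89.8% to 98.2% of these genes. Without the same 2 livers the SDs were 0.32 to 0.66, above those of 84.3% to 97.2%.

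The genes most like the mean of the 7, among 11165 others ranked by Pearson's r over 12 livers, included Cyp51 (r = 0.97), the Idi1 pseudogene Gm13502 (0.97), Mmab (0.95), Dhcr7 (0.93), Tspan31 (0.92) and Nsdhl (0.92). After group means were subtracted, Gm13502 (0.98), Cyp51 (0.97), Mmab (0.97) and Msmo1 (0.97) led. Cyp51, Msmo1, Nsdhl and Dhcr7 encode later enzymes of the same pathway, acting on sterols after Lss. Gm13502 and the Fdps copy Gm3571 (0.91) share sequence with members, so their likeness cannot be told apart from shared reads.

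Of 14 other sterol synthesis genes, 5 were lower in vehicle livers than in control livers, 0 higher and 9 not called by edgeR, with a median log2 fold change of -0.41 (with library size alone, 2 lower, 1 higher and a median of -0.077). Tm7sf2, a sterol C14 reductase, changed most, from 79.0 to 96.5 CPM in control livers to 25.3 to 46.3 CPM in vehicle livers (log2 fold change -1.40, edgeR FDR = 0.00125). Pmvk, which acts just before Mvd, went from 32.9 to 39.1 CPM to 9.20 to 25.2 CPM (-1.15, edgeR FDR = 0.00834). Both separated from control without overlap. Of all genes, 17.3% separated in this direction, and 14.8% were called lower in vehicle livers by edgeR. Ebp, the sterol isomerase, changed by -0.67 (edgeR FDR = 0.0100), the desaturase Sc5d by -0.97 (edgeR FDR = 0.0410) and the acetyl-CoA acetyltransferase Acat2 by -0.48 (edgeR FDR = 0.0410). The calls of Sc5d and Acat2 were each lost in 8 of 12 fits with 1 mouse left out: any control mouse or vehicle replicate 1, 2, 4 or 5, and also hAAM replicate 1 (Sc5d, edgeR FDR up to 0.110) or hAAM replicate 4 (Acat2, edgeR FDR up to 0.160). Both calls were also lost with the replicate block and with library size alone. With library size alone the call of Ebp was lost too (-0.33, edgeR FDR = 0.0528). The call of Acat2 was lost as well with only these 2 groups fitted (edgeR FDR = 0.0502).

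Against control, hAAM livers had 2 of these 14 lower, Tm7sf2 (-1.06, edgeR FDR = 0.0106) and Ebp (-0.53, edgeR FDR = 0.0475), and 0 higher, with a median of -0.41. With library size alone 1 was lower and the median was -0.11. Of all genes, 9.96% were called lower here with TMM scaling. Pmvk in hAAM livers was at 12.5 to 25.8 CPM, below every control liver (as were 14.2% of all genes), but did not pass (-0.81, edgeR FDR = 0.0627). It passed with DESeq2 (FDR = 0.0347), with only these 2 groups fitted (edgeR FDR = 0.0483), without vehicle replicate 3 (0.0283), vehicle replicate 4 (0.0376) or hAAM replicate 4 (0.0469), and without both near-identical libraries (0.0184). Between hAAM and vehicle 0 of 14 passed by edgeR, with 1 at an unadjusted p under 0.05. The vehicle count was 3 when any of control replicates 2 and 3 or vehicle replicates 1, 2, 4 and 5 was left out, and 7 without vehicle replicate 3. In hAAM livers it was 1 without control replicate 2 or 3, vehicle replicate 1 or 2, or hAAM replicate 1 or 2, and 4 without hAAM replicate 4. Tm7sf2 was called in 12 of 12 such fits in both comparisons. In hAAM livers the call of Ebp was lost without any control mouse, vehicle replicate 1 or 2, or hAAM replicate 1 or 2 (edgeR FDR up to 0.119). That call was also lost with library size alone (-0.25, edgeR FDR = 0.176), with only these 2 groups fitted and with the replicate block.

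The 13 genes of sterol sensing and handling did not move in 1 direction. In vehicle livers 2 were lower and 3 higher than in control livers, with a median of -0.070, whereas library size alone gave 0 lower and 6 higher. Insig1, which holds the SREBP complex in the endoplasmic reticulum and is itself an SREBP target, was at 320 to 604 CPM in control livers and 111 to 326 CPM in vehicle livers (log2 fold change -1.18, edgeR FDR = 0.0345). That call was lost without control replicate 2 (-0.92, edgeR FDR = 0.136), control replicate 3, or vehicle replicate 1, 2, 4 or 5. Srebf2 did not pass (-0.070, SE 0.162, edgeR FDR = 0.774; 0.27 with library size alone). Mbtps1, a protease that cleaves SREBP, was lower (-0.31, edgeR FDR = 0.00637), although with library size alone its log2 fold change was 0.033, and Mbtps2, the second such protease, was higher (0.29, edgeR FDR = 0.0451). The call of Mbtps2 was lost without control replicate 1 or 3, vehicle replicate 1, 4 or 5, or hAAM replicate 4 (edgeR FDR up to 0.158).

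Soat1, which esterifies cholesterol for storage and is prominent in macrophages, went from 6.14 to 10.1 CPM in control livers to 15.6 to 27.1 CPM in vehicle livers (1.31, edgeR FDR = 0.00338) and 15.2 to 30.4 CPM in hAAM livers (1.501, edgeR FDR = 0.00375). Mylip, a ubiquitin ligase that degrades lipoprotein receptors, was higher in vehicle (0.59, edgeR FDR = 0.0265) and in hAAM livers (0.60, edgeR FDR = 0.0412). The vehicle call of Mylip was lost without any control mouse or vehicle replicate 1 or 5 (edgeR FDR up to 0.0814), and its hAAM call without any control mouse, vehicle replicate 2, 3 or 5, or hAAM replicate 1, 3 or 4 (edgeR FDR up to 0.109). In hAAM livers 2 of the 13 were higher, Soat1 and Mylip, and 1 lower, Mbtps1 (-0.25, edgeR FDR = 0.0290), whereas library size alone gave 5 higher and 0 lower. The call of Mbtps1 in hAAM livers was lost without control replicate 1 or 3 or hAAM replicate 1 or 2 (edgeR FDR up to 0.114). Counts with 1 mouse left out ran from 2 (without vehicle replicate 1) to 6 in vehicle livers and from 1 (without control replicate 1 or 3, or hAAM replicate 1) to 3 in hAAM livers. Between hAAM and vehicle 0 of 13 passed by edgeR, with 1 at an unadjusted p under 0.05.

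**Figure D4:**
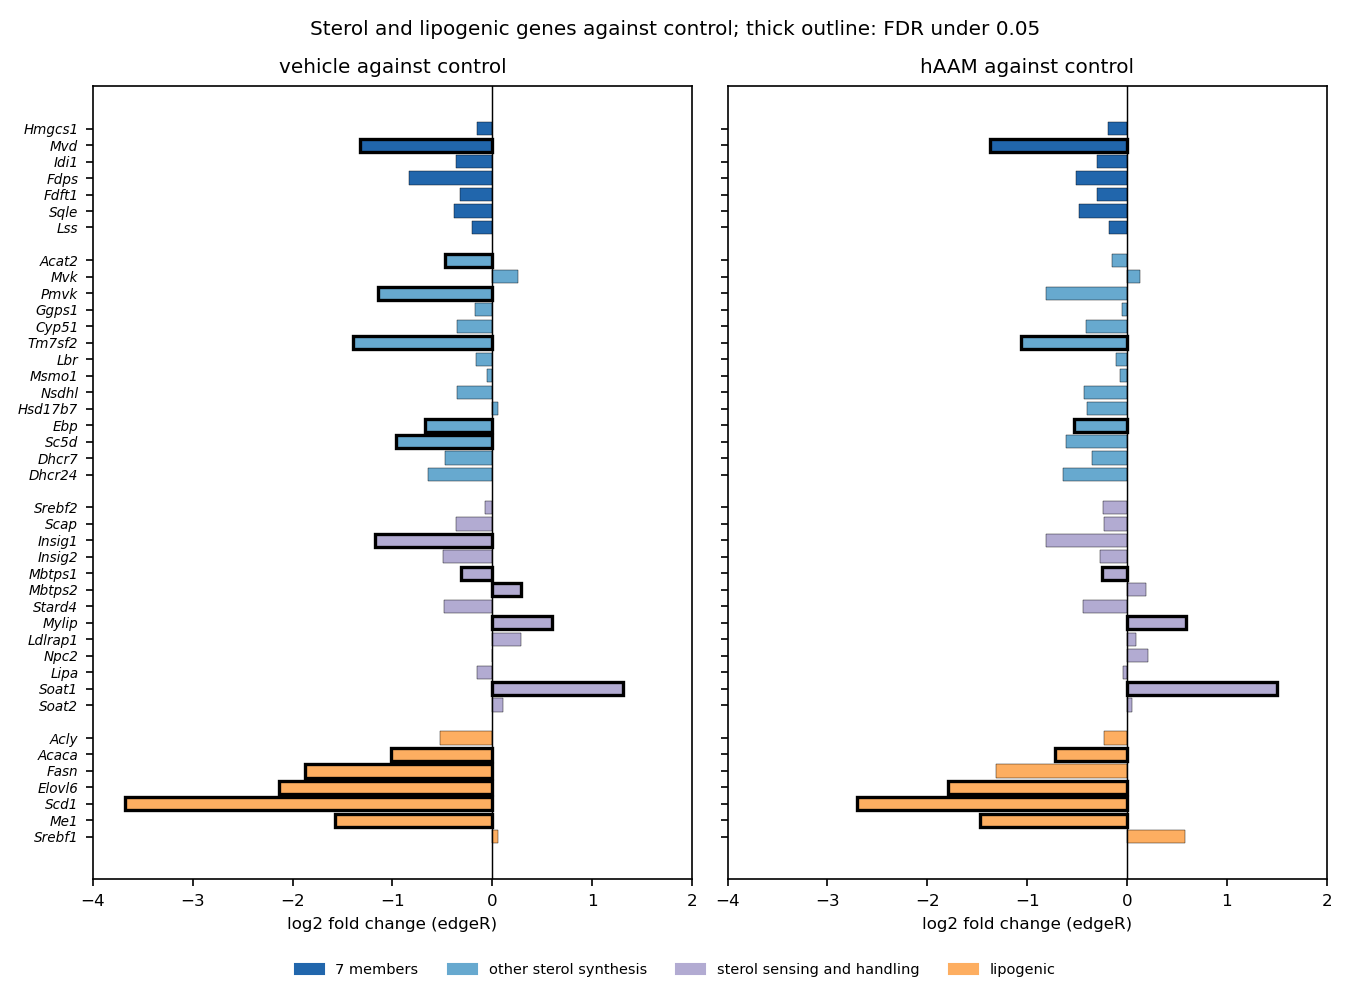
Log2 fold changes against control (horizontal axes) of the 7 genes and of 3 lists, from edgeR with TMM scaling; bars start at 0 and a thick outline marks an FDR under 0.05. Of the 7 genes Mvd (-1.32 and -1.37) is outlined, and of the lipogenic genes Scd1 reaches -3.68 and -2.70; with library size alone, 10 of the 41 bars (vehicle) and 12 of 41 (hAAM) lie on the other side of 0, among them Hmgcs1, Lss, Srebf2, Msmo1 and Mbtps1 in both and Fdft1 in vehicle.

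Other lists moved beside these genes. Of 7 lipogenic genes, which SREBP1c and insulin drive, 5 were lower in vehicle livers and 4 in hAAM livers by edgeR (with library size alone, 1 was also called higher in hAAM livers), among them Scd1 (-3.68 and -2.70) and Elovl6 (-2.13 and -1.80), with list medians of -1.57 and -1.31. The hAAM call of Scd1 was lost without control replicate 1 or 3 or hAAM replicate 1 or 2 (edgeR FDR up to 0.0757). Their summed CPM was 8673 to 13695 in control, 923 to 3630 in vehicle and 1495 to 3814 in hAAM livers, and the injured livers with the highest sums were vehicle replicate 3 and hAAM replicate 4. Of 9 clock genes, 7 were higher and 1 lower in vehicle livers and 4 higher in hAAM livers (7 with library size alone). Their summed CPM was 156 to 181 in control, 315 to 341 in vehicle and 192 to 329 in hAAM livers. Their part in the results for the 7 genes was not tested, and neither was that of food intake or the hour of collection, which the labels do not give.

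Of 6 pericentral hepatocyte markers, 5 were lower in vehicle livers (4, and 1 higher, with library size alone, and 3 without control replicate 1) and 3 in hAAM livers (2 to 4 with 1 mouse left out), and their summed CPM was 3880 to 6255 in control, 390 to 1499 in vehicle and 482 to 2848 in hAAM livers. The sum was lowest in its group in vehicle replicate 4 and hAAM replicate 2, the livers where most of the 7 genes were lowest. Vehicle replicate 3 had the highest sum of its group, but the other groups did not follow: in hAAM livers the highest sum was that of replicate 3 (2848 CPM, against 1490 in replicate 4, highest for 6 of the 7 genes), and in control livers replicate 2, highest for 6 of the 7 genes, had the lowest. Summed general hepatocyte markers overlapped, at 63264 to 91222 in control, 66206 to 94779 in vehicle and 70586 to 98320 in hAAM livers, but that sum is mostly Alb. Of the 6 hepatocyte markers, 1 was called lower by edgeR in each injured group (2 by DESeq2 in vehicle livers), the fibrinogen chain gene Fgb (-1.05 and -0.99, edgeR FDR = 0.00120 and 0.00393). Summed periportal markers overlapped too, and of the 6 there were 1 higher (Sds) and 1 lower (Cyp2f2) in vehicle livers and 2 higher (Sds and Hsd17b13) in hAAM livers. The call of Cyp2f2 was lost without control replicate 1, those of Sds without control replicate 1 or 3 (and in vehicle livers without vehicle replicate 1), and that of Hsd17b13 without control replicate 1 or 3 or hAAM replicate 2. Of 6 macrophage markers 2 were higher in each injured group (1 in vehicle livers without control replicate 2 or 3), with sums of 213 to 266 in control, 259 to 431 in vehicle and 262 to 436 in hAAM livers. Neutrophil, cholangiocyte and B cell markers (4 genes each) had 0 called in either group by edgeR, stellate markers 1 of 4 higher in each group, and endothelial markers 1 of 4 higher in vehicle livers and 0 in hAAM livers. Without control replicate 3 the endothelial call in vehicle livers and the stellate call in hAAM livers were lost, and without control replicate 1 a neutrophil marker was called higher in each group. In hAAM livers 1 endothelial marker was called higher without vehicle replicate 3 or with the replicate block, and 1 lower without vehicle replicate 4. There 1 was called in each direction without hAAM replicate 3 or 4, or without both near-identical libraries. In vehicle livers 1 endothelial marker was also called lower without vehicle replicate 3, hAAM replicate 2 or both near-identical libraries, and with only these 2 groups fitted. DESeq2 called 1 neutrophil marker higher and 1 endothelial marker lower in vehicle livers beside those of edgeR, and 1 endothelial marker higher and 1 lower in hAAM livers. At an unadjusted p under 0.05 edgeR had 1 neutrophil marker in vehicle livers and 2 endothelial markers in hAAM livers. With library size alone, vehicle livers had 4 macrophage, 3 periportal, 3 endothelial, 2 stellate, 1 hepatocyte, 1 neutrophil and 1 cholangiocyte marker higher, and hAAM livers 3 macrophage, 1 endothelial and 1 hepatocyte marker where TMM gave 2, 0 and 0. Vehicle replicate 5 stood apart in summed B cell markers, at 58.4 CPM against 3.42 to 4.41 in the other vehicle livers, and its summed neutrophil markers (20.8 CPM) were the highest of the 12 livers. Without it the median of the 7 genes against control was -0.44, and Mvd was still the 1 gene called. No marker of these lists was at 0 counts in any liver. The part of these cell type markers in the results for the 7 genes was not tested.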

How the data were processed

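RNA from frozen liver was sequenced after rRNA depletion with a directional kit. The authors trimmed paired-end reads with cutadapt 4.6, aligned them to GRCm38 with STAR 2.7.1a and counted them per gene. The deposited counts, raw and not normalized, cover 24187 genes whose counts sum to 15 or more. Symbols came from GENCODE for GRCm38 (59 genes without one). Counts were analysed in R 4.3.3 with edgeR 4.0.16: filterByExpr by group (22581 genes kept), TMM scaling, and 1 quasi-likelihood fit of all 12 livers, two-sided, with Benjamini-Hochberg adjustment over all genes tested and a threshold of 0.05. The common biological coefficient of variation was 0.214. log2 CPM carries a prior count of 2, and RPKM uses the union of annotated exons. Copies were found with blastn 2.17.0. As a check of the code, the fit was run on counts simulated from its own estimates, with genes independent and changes in vehicle livers alone. That setting holds no correlated genes and no near-identical libraries, so it does not test the fit for them. P-values set the difference between groups against the spread between mice within groups, estimated in 1 fit of all groups. They take the 12 livers as independent, which the near-identical counts of hAAM replicate 4 and vehicle replicate 3 place in doubt.

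The 7 members and the gene lists were chosen with earlier results of these data known. Named from the sterol lists was every gene past the FDR in any comparison. Alternatives were DESeq2 1.42.0, other scalings, filters and sample sets, robust estimation, a replicate block, each mouse left out in turn and, chosen after the data were seen, the counts of copies added to Fdps, Idi1 and Fdft1. Histology, serum and cell culture measurements were not used here.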

Additional observations from a re-analysis of the deposited data

Results flagged for a closer look

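Scd1, a lipogenic gene, stood apart in 1 liver by Dixon's test at the 95% level: its log2 CPM was 11.04 in vehicle replicate 3, against 7.79 to 8.51 in the other 4 vehicle livers. This is the liver whose counts nearly matched those of hAAM replicate 4 and in which 7 of the 7 cholesterol synthesis genes were highest in their group. Over the 46 gene and group combinations examined, 1 was past the critical value, and chance alone gives about 1 in 20.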

How the results depend on the processing

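The call of Mvd, and the count of 1 of 7 against control and 0 of 7 between treatments, held under all 22 alternatives. With library size alone the median of all genes shifted to 0.36 (vehicle) and 0.32 (hAAM) on the log2 scale, and log2 fold changes became 0.18 and 0.10 for Hmgcs1 and 0.13 and 0.11 for Lss (vehicle and hAAM), 0.012 for Fdft1 (vehicle), 0.033 and 0.044 for Mbtps1 (vehicle and hAAM) and 0.14 for Acat2 (hAAM), and between treatments -0.030 for Fdft1 and -0.023 for Lss. Between treatments the signs were not stable: the replicate block gave 0.15 for Hmgcs1, 0.057 for Mvd and 0.026 for Sqle, and leaving out hAAM replicate 4 and vehicle replicate 3 gave -0.022 for Fdft1 and -0.028 for Lss. With 1 mouse left out, changes against control in vehicle livers ranged from -0.36 to 0.022 for Hmgcs1 and from -0.44 to 0.057 for Lss. They ranged from -1.53 to -0.96 for Mvd, -0.63 to -0.20 for Idi1 and -1.19 to -0.64 for Fdps. For Fdft1 they ranged from -0.48 to -0.20, and for Sqle from -0.63 to -0.15. In hAAM livers they ranged from -0.49 to -0.071 for Hmgcs1 and from -0.43 to 0.080 for Lss. For Mvd they were -1.58 to -1.01, for Idi1 -0.62 to -0.18 and for Fdps -0.80 to -0.29. For Fdft1 they were -0.49 to -0.18 and for Sqle -0.73 to -0.25. Between treatments they ranged from -0.34 to 0.16 for Hmgcs1, -0.24 to 0.058 for Mvd, -0.26 to 0.33 for Idi1, 0.034 to 0.68 for Fdps, -0.17 to 0.17 for Fdft1, -0.30 to 0.055 for Sqle and -0.23 to 0.23 for Lss. Genes called in vehicle livers numbered 6719, or 4253 with the replicate block, and with library size alone 8637 higher and 1110 lower against 3380 and 3339. In hAAM livers they numbered 4666, or 7340 with library size alone (6559 higher and 781 lower against 2418 and 2248), 2729 with only these 2 groups fitted, 2959 with the block and 2419 to 5456 with 1 mouse left out (2419 without control replicate 3). Between treatments DESeq2 called 1, and leaving out 1 mouse gave 0 to 1. Of the 14 other sterol genes, vehicle had 3 called with library size alone, 3 with the block and 3 to 7 with 1 mouse left out, and hAAM had 1 with library size alone, 1 with the block, 5 without both near-identical libraries and 1 to 4 with 1 mouse left out. Of the 13 sensing genes, vehicle had 2 with the block and 2 to 6 with 1 mouse left out, and hAAM had 5 with library size alone, 1 with only these 2 groups, 1 with the block, 1 without both libraries and 1 to 3 with 1 mouse left out. The causes were not tested. Same-numbered livers of different groups were compared by their deviations from their group means. These deviations correlated at -0.46 to 0.38 over 10 pairs, with no common sign, and the main fit treated the mice as unpaired. Each of the 7 genes had at least 426 counts in each liver.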
